A study of Mus musculus with 35 samples.

Results

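Hepcidin, the hormone that sets how much iron enters the blood, was followed here in mouse liver together with the bone morphogenetic protein (BMP) genes that regulate it and the genes that move iron. The genes are Bmp2 and Bmp6 (ligands), Id1 and Smad7 (targets of BMP signalling), Hamp (hepcidin), Slc40a1 (ferroportin, the iron exporter), Trf (transferrin), Tfrc and Tfr2 (transferrin receptors) and Steap4 (a metal reductase). They were chosen by symbol, and each gene was read from the probe set that the platform annotation gives to that gene alone, taking the one with the highest mean signal. Of the 10 genes, 9 have such a probe set, and all 9 were among the 12678 genes that passed the filter on low signals and were tested. The only probe set of Trf is shared with Srprb, so transferrin itself is not reported.

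The samples are the left lateral liver lobes of 35 BALB/c mice, taken 6 h after an intravenous injection, with 1 array per mouse and 5 mice in each of 7 groups. The treated groups received silica particles that differ in size: a single dose level of SP30 (10 mg/kg), 3 of SP70 (10, 20 or 40 mg/kg) and 2 of SP300 (10 or 200 mg/kg). The control mice received deionized water, the vehicle. The design addresses the dose response to SP70 and the effect of particle size, once with 10 mg/kg of each particle and once at the doses the study classed as toxic (10 mg/kg of SP30, 40 of SP70 and 200 of SP300). The age and sex of the mice are not given in the labels used here.

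Hepcidin is a peptide made by hepatocytes that binds ferroportin on macrophages, enterocytes and hepatocytes and causes its breakdown, which holds iron inside those cells. Its gene is driven by a BMP input and an inflammatory input. BMP2 and BMP6, made largely by the sinusoidal endothelial cells of the liver, act on hepatocytes through SMAD proteins with the co-receptor hemojuvelin, and interleukin-6 acts through STAT3 during inflammation. Id1 and Smad7 are standard readouts of the BMP input, and SMAD7 is also an inhibitor of it.

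Signals are the deposited intensities on a linear scale, and changes are log2 differences between group means, treated minus control unless another pair is named, with the standard error (SE) of the limma fit. For each gene the SE is pooled over all 7 groups. A pseudocount of 12.5 was added to each signal before the log2 was taken, and folds are on that scale. A gene was called where limma's p, with Benjamini-Hochberg adjustment across the 12678 genes, was under 0.05. All comparisons with control share the same 5 control mice. Array medians lay between 149 and 180, and the values carry neither detection nor saturation calls. The filter level of 165 is the median of all signals, and 48037 is the level above which the brightest 0.5% of signals lie. Folds between signals above that level may be compressed, which was not tested.

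Hamp and Steap4 were called higher and Slc40a1 lower in 5 of the 6 treated groups, all but SP300 at 10 mg/kg. Against control, 6 of the 9 measured genes were called after SP30 (4 higher, 2 lower), where 49.3% of all genes tested were called (18% higher, 31.3% lower). After SP70 at 10 mg/kg 5 were called (4 higher, 1 lower), beside 18.2% of all genes (12.5% higher, 5.69% lower). At 20 mg/kg 5 were called (3 higher, 2 lower), beside 39.7% (18.8% higher, 20.9% lower), and at 40 mg/kg 4 (2 higher, 2 lower), beside 44.4% (15.6% higher, 28.8% lower). The smallest background was that of SP300 at 10 mg/kg, where Id1 and Smad7 were called, both higher, beside 1.17% of all genes (0.923% higher, 0.245% lower), which is 148 genes. In that group 6 of the 9 genes had an unadjusted p under 0.05 in limma. With so few genes called, the adjustment demands a smaller p, so a missing call there does not show that a gene was unchanged. SP300 at 200 mg/kg called 5 (2 higher, 3 lower), beside 30.6% (12.6% higher, 18% lower). The split over all genes moved with the scaling: quantile normalization gave 1316 higher and 1407 lower after SP70 at 10 mg/kg (reported 1580 and 722) and 73 and 56 after SP300 at 10 mg/kg (reported 117 and 31), and centring each array gave 1867 and 3273 after SP70 at 20 mg/kg (reported 2383 and 2651) and 1772 and 1535 after SP300 at 200 mg/kg (reported 1598 and 2286).

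**Figure D1:**
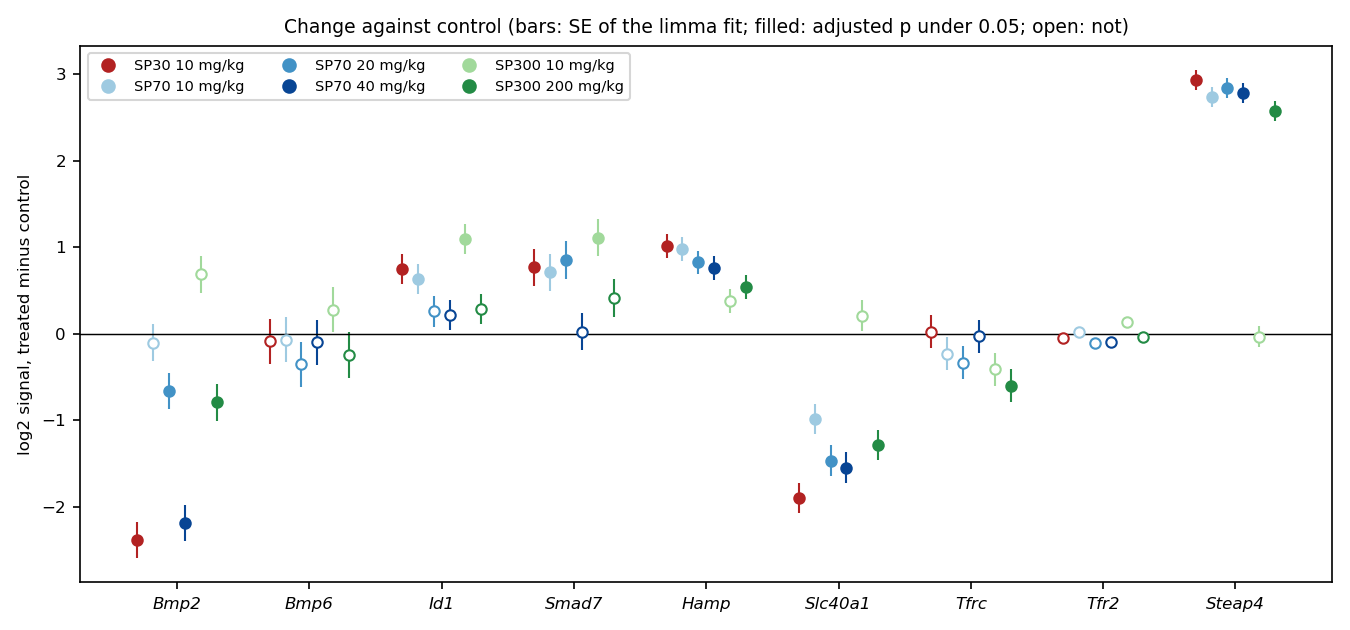
Change of each measured gene against control on the log2 scale (vertical axis), for the 6 treated groups of 5 mice (colours). Bars are SE of the limma fit and filled points passed an adjusted p of 0.05; Steap4 lies between 2.57 and 2.93 in all treated groups but SP300 at 10 mg/kg, where it is at -0.032.

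Cell type markers moved in these livers as well. The shares of all genes called, given above, are the background for the counts in this and the later lists. Over all genes tested, the median change was -0.12 after SP30, 0.0056, -0.030 and -0.095 after SP70 at 10, 20 and 40 mg/kg, and 0.063 and -0.062 after SP300 at 10 and 200 mg/kg. Of 11 neutrophil markers tested, 8 were higher after SP30, 5, 6 and 8 after SP70 at 10, 20 and 40 mg/kg, 0 after SP300 at 10 mg/kg and 4 after SP300 at 200 mg/kg, and none was called lower. Of 7 monocyte markers, all 7 were higher after SP30 and after each dose of SP70, 0 after SP300 at 10 mg/kg and 5 after SP300 at 200 mg/kg. Of 14 hepatocyte markers, 3 rose and 2 fell after SP30, 2, 2 and 0 rose and 0, 1 and 4 fell after SP70 at 10, 20 and 40 mg/kg, none was called after SP300 at 10 mg/kg, and 1 rose and 6 fell after SP300 at 200 mg/kg, with list medians between -0.14 and 0.074 in the 6 comparisons. No hepatocyte marker had a group mean below the filter level. Of 11 stellate cell markers, 7 fell after SP30, 3, 4 and 6 after SP70 at 10, 20 and 40 mg/kg, 0 after SP300 at 10 mg/kg and 3 after SP300 at 200 mg/kg, and none rose. The sinusoidal endothelial, Kupffer cell and erythroid markers are given beside Bmp2, Slc40a1 and Tfrc.

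Bmp2, the endothelial ligand, was strongly lower after SP30 and after the highest dose of SP70. Its signals in the 5 mice were 190.2, 286, 422, 353 and 518 after SP30 and 569, 271, 332, 418 and 392 after SP70 at 40 mg/kg, against 1451, 1496, 2171, 2015 and 1988 in control mice. After SP70 at 10 mg/kg they were 1052, 1920.1, 2254, 1485 and 1964, and at 20 mg/kg 1194, 991, 1291, 888 and 1386. After SP300 they were 2784, 3083, 3358, 3026 and 2360.4 at 10 mg/kg and 792, 1227, 1153, 1186 and 887 at 200 mg/kg. All mice given SP30 or 40 mg/kg of SP70 lay far below every control mouse, all mice given 20 mg/kg of SP70 or 200 mg/kg of SP300 lay below every control mouse, and all mice given SP300 at 10 mg/kg lay above every control mouse.

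Against control, Bmp2 fell 5.21-fold after SP30 (-2.38 ± 0.21, adjusted p = 1.48e-11) and 4.56-fold after SP70 at 40 mg/kg (-2.19 ± 0.21, adjusted p = 1.56e-10). It fell 1.58-fold at 20 mg/kg of SP70 (-0.66 ± 0.21, adjusted p = 0.0109), while at 10 mg/kg the difference was -0.10 ± 0.21 (adjusted p = 0.806, 95% confidence interval -0.53 to 0.32). It fell 1.73-fold after SP300 at 200 mg/kg (-0.79 ± 0.21, adjusted p = 0.00356). In mice given SP300 at 10 mg/kg it was 1.61-fold above control without passing the test (0.69 ± 0.21, adjusted p = 0.102); a fit of those 2 groups alone gave an adjusted p of 0.0422. By group mean the treated groups ranked from SP30 (354 ± 126, SD, n = 5) and SP70 at 40 mg/kg (397 ± 112), which overlapped, over SP300 at 200 mg/kg (1049 ± 196), SP70 at 20 mg/kg (1149.96 ± 207) and SP70 at 10 mg/kg (1735 ± 470.5), each of these 3 overlapping its neighbour among them, to SP300 at 10 mg/kg (2922 ± 375), which overlapped with no other treated group. The control mean (1824 ± 328) lay between those of SP70 and SP300 at 10 mg/kg and overlapped with SP70 at 10 mg/kg.

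Between treated groups, Bmp2 was lower at 40 than at 20 mg/kg of SP70 (-1.53 ± 0.21, adjusted p = 7.85e-06), and the slope over 0, 10, 20 and 40 mg/kg of SP70 was -0.0573 per mg/kg (adjusted p = 1.91e-11). At 10 mg/kg of each particle, SP30 was 8.38-fold below SP300 (-3.07 ± 0.21, adjusted p = 3.29e-14) and SP70 1.72-fold below it (-0.79 ± 0.21, adjusted p = 0.00596). SP30 was also below SP70 (-2.28 ± 0.21, adjusted p = 1.21e-09). At the toxic doses, SP30 and SP70 differed by -0.19 ± 0.21 (adjusted p = 0.679, 95% confidence interval -0.62 to 0.23), and both were below SP300 (-1.59 ± 0.21, adjusted p = 4.72e-07 for SP30 and -1.40 ± 0.21, adjusted p = 1.7e-05 for SP70). SP300 at 200 mg/kg was below SP300 at 10 mg/kg (-1.48 ± 0.21, adjusted p = 1.22e-06).

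Markers of liver sinusoidal endothelial cells, a main source of Bmp2, were lower in several of these groups. Among 18 markers, 14 were lower and 1 higher after SP30 (median -1.47, beside -0.12 over all genes tested), and 13 were lower and 1 higher after SP70 at 40 mg/kg (median -1.36, beside -0.095). At 10 and 20 mg/kg of SP70, 2 and 8 fell and 1 and 2 rose (medians -0.27 and -0.39), and after SP300 at 200 mg/kg 10 fell and 2 rose (median -0.39). After SP300 at 10 mg/kg none was called, with a median of 0.25 beside 0.063.

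The summed signal of these 18 markers ran from 13279.5 to 23271 after SP30, from 10351 to 20981 after SP70 at 40 mg/kg and from 17479 to 36432 after SP300 at 200 mg/kg, against 38396 to 53529.5 in control mice. It ran from 29606 to 43431.5 after SP70 at 10 mg/kg, from 32878 to 36494 at 20 mg/kg and from 49972 to 57219.8 after SP300 at 10 mg/kg. No marker was at 0 in any mouse. Over the 35 mice, the genes whose log2 signals were most like Bmp2 were Kdr (Pearson r = 0.959), Clec4g (0.951) and Aqp1 (0.947), which are all expressed in sinusoidal endothelium; the 35 points share groups and array scaling. Kdr and Clec4g are themselves among the 18 markers. In these bulk samples fewer endothelial cells and less RNA per endothelial cell cannot be told apart, and neither was separated from a change of Bmp2 itself.

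**Figure D2:**
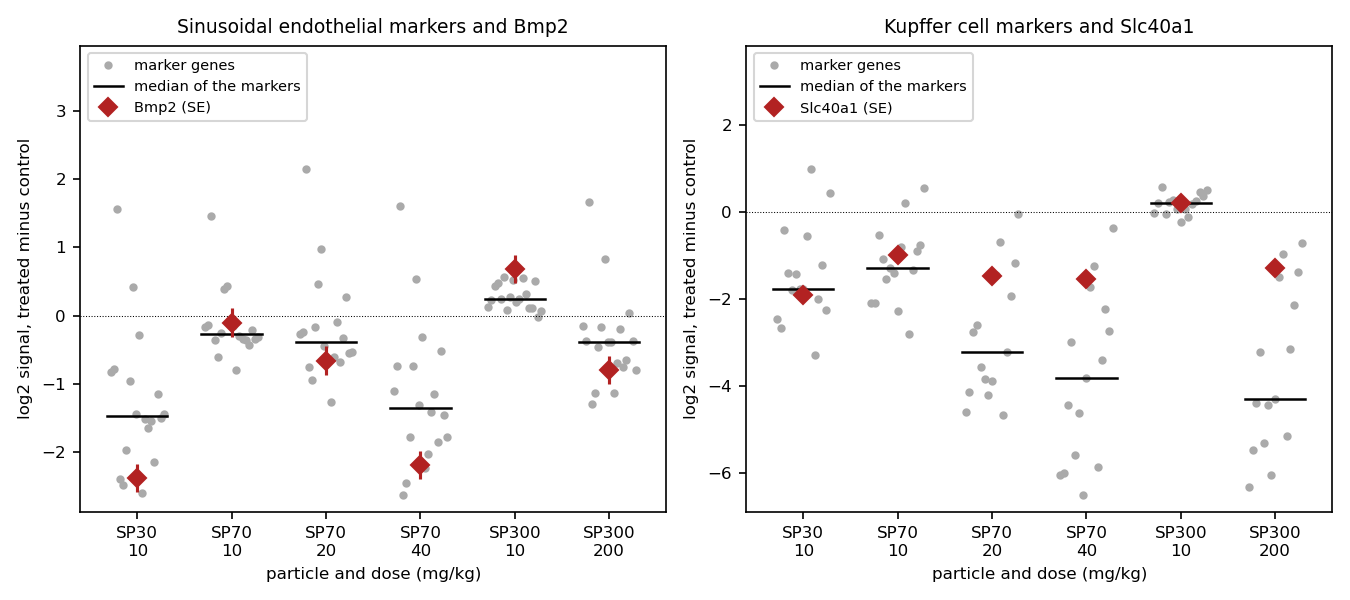
Log2 change against control (vertical axis) in each treated group for Bmp2 beside 18 sinusoidal endothelial markers (left) and for Slc40a1 beside 15 Kupffer cell markers (right). Grey points are single marker genes, the black line is their median, and the red diamond is the named gene with its SE; Bmp2 lies below the marker median after SP30, after SP70 at 20 and 40 mg/kg and after the higher dose of SP300, and Slc40a1 lies above it after all 3 doses of SP70 and after the higher dose of SP300.

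Bmp6, the ligand that follows liver iron, was dim and was not called in any comparison. Its signals ran from 158 to 275 after SP30, from 136 to 262, from 115 to 244 and from 115 to 282 after SP70 at 10, 20 and 40 mg/kg, and from 183 to 376 and from 124 to 242 after SP300 at 10 and 200 mg/kg, against 139 to 291 in control mice. All groups overlapped, and 10 of the 35 signals lay below the filter level of 165. Differences from control lay between -0.35 ± 0.26 (SP70 at 20 mg/kg, 95% confidence interval -0.88 to 0.18) and 0.28 ± 0.26 (SP300 at 10 mg/kg, 95% confidence interval -0.25 to 0.81).

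Id1, an inhibitor of helix-loop-helix factors that BMP signalling induces, rose after each particle at 10 mg/kg and was not called at the higher doses of SP70 and SP300. Its signals were 744, 1237, 855, 933 and 945 after SP30, 1115, 883, 648, 696 and 1039 after SP70 at 10 mg/kg and 1132, 1296, 1049, 1354 and 1123 after SP300 at 10 mg/kg, against 589, 705, 418, 690.4 and 416 in control mice. They were 639.6, 621, 735, 523 and 813 and 580.2, 736, 478, 665 and 798 after SP70 at 20 and 40 mg/kg, and 512, 682, 796, 869.7 and 573 after SP300 at 200 mg/kg. All mice given SP30 or SP300 at 10 mg/kg lay above every control mouse, whereas the other treated groups overlapped with control.

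Against control, Id1 rose 2.13-fold after SP300 at 10 mg/kg (1.09 ± 0.17, adjusted p = 0.000446), 1.68-fold after SP30 (0.75 ± 0.17, adjusted p = 0.00057) and 1.55-fold after SP70 at 10 mg/kg (0.63 ± 0.17, adjusted p = 0.00898). The differences after SP70 at 20 and 40 mg/kg were 0.26 ± 0.17 (adjusted p = 0.258) and 0.22 ± 0.17 (adjusted p = 0.328), and after SP300 at 200 mg/kg 0.29 ± 0.17 (adjusted p = 0.227). Between doses, Id1 was lower at 200 than at 10 mg/kg of SP300 (-0.80 ± 0.17, adjusted p = 0.000511), while the difference between 40 and 10 mg/kg of SP70 did not pass (-0.41 ± 0.17, adjusted p = 0.0723). Among the particles at 10 mg/kg, SP30 and SP300 differed by -0.35 ± 0.17 (adjusted p = 0.097, 95% confidence interval -0.70 to 0.0087). SP30 was above SP300 at the toxic doses (0.46 ± 0.17, adjusted p = 0.0462), but in 7 of 10 fits that each left out a mouse this call was lost. The genes most like Id1 over the 35 mice were Map3k5 (Pearson r = 0.679), Ifnar2 (0.664) and Otulinl (0.644).

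Smad7, the feedback inhibitor, rose after each particle at 10 mg/kg and at 20 mg/kg of SP70. Its signals were 563, 688, 764, 497 and 1037 after SP30, 848, 788, 345, 645 and 832 after SP70 at 10 mg/kg and 1180.2, 835, 714, 925 and 785 after SP300 at 10 mg/kg, against 353, 461, 431, 339 and 421 in control mice. They were 871, 575, 803, 702 and 728 and 429, 270.03, 485, 432 and 450.2 after SP70 at 20 and 40 mg/kg, and 561, 488, 326, 691 and 707 after SP300 at 200 mg/kg. All mice given SP30, SP70 at 20 mg/kg or SP300 at 10 mg/kg lay above every control mouse, and the range at 40 mg/kg of SP70 covered that of the control mice.

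Smad7 rose 2.16-fold after SP300 at 10 mg/kg (1.11 ± 0.22, adjusted p = 0.00425), 1.80-fold after SP70 at 20 mg/kg (0.85 ± 0.22, adjusted p = 0.00165), 1.70-fold after SP30 (0.77 ± 0.22, adjusted p = 0.00332) and 1.64-fold after SP70 at 10 mg/kg (0.71 ± 0.22, adjusted p = 0.0174). Without replicate 1 or replicate 5 of the SP70 10 mg/kg mice the last value was 0.62 or 0.63 and no longer passed (adjusted p = 0.0619 and 0.0592). At 40 mg/kg of SP70 the difference from control was 0.025 ± 0.22 (adjusted p = 0.935), and Smad7 was lower there than at 20 mg/kg (-0.83 ± 0.22, adjusted p = 0.0102) and at 10 mg/kg (-0.68 ± 0.22, adjusted p = 0.0144); without replicate 2 of the SP70 40 mg/kg mice the last difference was -0.54 (adjusted p = 0.0649). SP30 was above SP70 at the toxic doses (0.74 ± 0.22, adjusted p = 0.033), a call lost in 5 of 10 fits that each left out a mouse. After SP300 it was lower at 200 than at 10 mg/kg (-0.70 ± 0.22, adjusted p = 0.0119); without replicate 3 of the SP300 200 mg/kg mice that difference was -0.52 (adjusted p = 0.0625).

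The dimmer Smad7 probe set did not pass for SP30 against SP70 at the toxic doses (0.57, adjusted p = 0.0851) or for SP300 at 200 against 10 mg/kg (-0.28, adjusted p = 0.289). For SP300 at 200 mg/kg against control the Smad7 probe sets gave different calls as well. The brighter one was at 0.41 ± 0.22 (adjusted p = 0.15), while the dimmer one was called higher (0.71 ± 0.19, adjusted p = 0.00404 over all single-gene probe sets). In the other comparisons with control both probe sets gave the same calls, the dimmer one at 0.77 after SP30, 1.04, 1.01 and 0.20 after SP70 at 10, 20 and 40 mg/kg, and 0.99 after SP300 at 10 mg/kg.

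Other genes that BMP signalling is known to induce did not all follow Id1 and Smad7; these 5 were picked by role after their values were seen. Id3, a relative of Id1, rose by 2.14 ± 0.24 after SP30, by 0.92 ± 0.24, 0.75 ± 0.24 and 1.46 ± 0.24 after SP70 at 10, 20 and 40 mg/kg, and after SP300 at 10 mg/kg (0.93 ± 0.24, adjusted p = 0.0463), and was at 0.22 ± 0.24, adjusted p = 0.542 after SP300 at 200 mg/kg. Atoh8, a transcription factor of hepatocytes, rose after SP30 (2.09 ± 0.53, adjusted p = 0.00126) and after SP70 at 20 (2.08 ± 0.53, adjusted p = 0.00167) and 40 mg/kg (2.57 ± 0.53, adjusted p = 0.000134). Its control signals ran from 37.3 to 239, around the filter level, so these sizes depend on the pseudocount. Smad6, an inhibitor like SMAD7, was called once, at 20 mg/kg of SP70 (0.69 ± 0.18, adjusted p = 0.00254). Id2 and Id4 were not called in any of the 6 comparisons with control, with differences between -0.78 ± 0.34 for Id4 after SP30 and 0.56 ± 0.21 for Id2 after SP70 at 10 mg/kg.

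**Figure D3:**
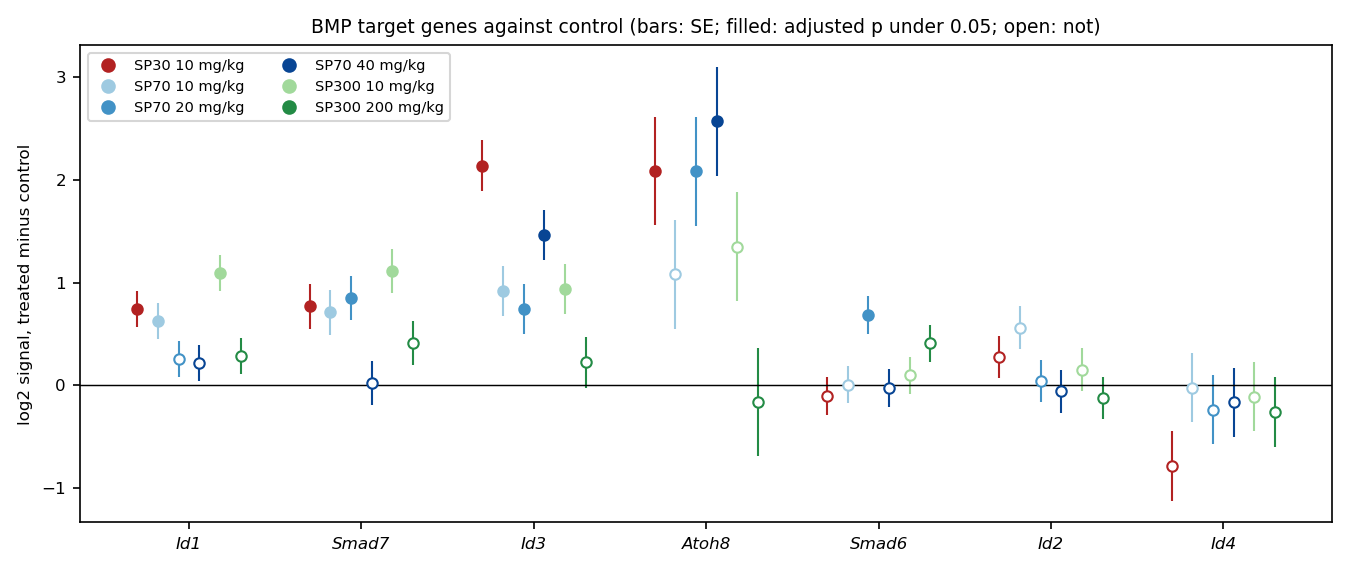
Log2 change against control (vertical axis) of 7 genes that BMP signalling is known to induce, in the 6 treated groups of 5 mice (colours). Bars are SE of the limma fit and filled points passed an adjusted p of 0.05; at 40 mg/kg of SP70, Id3 and Atoh8 are higher (1.46 and 2.57) while Id1 and Smad7 are at 0.22 and 0.025.

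Across the wider BMP and SMAD list of 38 genes, 31 were tested. After SP30 9 rose and 12 fell, after SP70 at 10, 20 and 40 mg/kg 5, 8 and 7 rose and 5, 11 and 11 fell, after SP300 at 10 mg/kg 1 rose (Id3), and after SP300 at 200 mg/kg 4 rose and 11 fell. The medians lay between -0.22 and 0.054, beside -0.12 to 0.063 over all genes tested. Among the genes with the smallest adjusted p, Hjv, the hemojuvelin co-receptor of hepatocytes, fell after SP30 (-2.83 ± 0.15), after SP70 at 10 (-1.04 ± 0.15), 20 (-1.78 ± 0.15) and 40 mg/kg (-2.04 ± 0.15) and after SP300 at 200 mg/kg (-0.87 ± 0.15), and was at 0.065 ± 0.15 after SP300 at 10 mg/kg. Eng, the endothelial co-receptor endoglin, fell after SP30 (-1.49 ± 0.13) and after SP70 at 40 mg/kg (-1.46 ± 0.13). Bmp5, another ligand, fell after SP30 (-1.22 ± 0.12) and after the rising doses of SP70 (-0.48 ± 0.12, -0.61 ± 0.12 and -0.85 ± 0.12). Eng is also among the sinusoidal endothelial markers and Bmp5 among the stellate cell markers. The part of those cell types in these falls was not tested. Smad1, a signal carrier, rose by 1.00 ± 0.099 after SP30 and by 0.59 ± 0.099, 0.55 ± 0.099 and 0.52 ± 0.099 after SP70.

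Hamp, the hepcidin gene, lies on chromosome 7 beside Hamp2, a closely related gene. The bases just before the annotated starts of Hamp, Hamp2 and Steap4 are printed as examples picked by hand. A motif of the BMP or the inflammatory input can be read in each. Tfrc, which also holds such a motif, is described below and not printed. The sequences are from RefSeq on GRCm38.p6, each 250 bases long, 5′ to 3′ on the gene's strand and ending at the base before the start. Capitals mark GGCGCC, the core of the BMP-responsive element described in hepcidin promoters, and TTCNNNGAA, the spaced palindrome that STAT factors such as STAT3 bind; each motif is its own reverse complement, and they do not overlap here.
Hamp, chr7:30944030-30944279, minus strand: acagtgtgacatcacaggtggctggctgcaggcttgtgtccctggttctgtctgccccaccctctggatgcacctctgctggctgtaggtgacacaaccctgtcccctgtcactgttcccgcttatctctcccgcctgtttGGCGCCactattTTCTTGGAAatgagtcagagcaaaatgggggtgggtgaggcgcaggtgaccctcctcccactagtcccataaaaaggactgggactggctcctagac
Hamp2, chr7:30924182-30924431, minus strand: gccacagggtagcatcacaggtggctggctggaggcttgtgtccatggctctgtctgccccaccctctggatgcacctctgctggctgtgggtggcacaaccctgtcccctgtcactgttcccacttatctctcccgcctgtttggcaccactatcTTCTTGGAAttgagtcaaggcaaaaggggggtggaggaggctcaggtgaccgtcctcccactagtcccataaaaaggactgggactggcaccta
Steap4, chr5:7960222-7960471, plus strand: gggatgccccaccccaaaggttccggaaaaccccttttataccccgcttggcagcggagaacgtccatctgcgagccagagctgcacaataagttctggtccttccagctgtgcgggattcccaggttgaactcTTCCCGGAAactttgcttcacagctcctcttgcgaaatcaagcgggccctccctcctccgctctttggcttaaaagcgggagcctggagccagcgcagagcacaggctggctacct

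The Hamp window holds GGCGCC at -109 to -104 and TTCTTGGAA at -97 to -89 from the start. The Hamp2 window holds TTCTTGGAA at -94 to -86 and no GGCGCC, and the Steap4 window holds TTCCCGGAA at -116 to -108 and no GGCGCC. Of 32851 RefSeq windows of this length, 9.59% hold GGCGCC, 7.02% hold TTCNNNGAA and 0.368% hold both. Of the other genes in that table, 1 of 2 windows of Tfrc holds GGCGCC at -89 to -84, and the window of Bmp6 and the 3 windows of Tfr2 hold neither motif. Bmp2, Id1, Smad7, Slc40a1 and Trf are named only. A match is a description of the letters and not of binding.

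Hamp was called higher in all treated groups but SP300 at 10 mg/kg, where its mean also lay above that of control. Its highest signals were after SP30 and the lowest dose of SP70. Its signals were 75166, 76915, 80679, 84999.8 and 81738 after SP30, against 56662, 28814, 32909, 40484 and 43868 in control mice. After SP70 they were 80702, 69299, 75079.9, 78909.8 and 87026 at 10 mg/kg, 75986, 70413, 76177, 58315 and 69972 at 20 mg/kg and 66688, 72642, 65248, 65426 and 64922 at 40 mg/kg. After SP300 they were 61823, 31542, 49603, 55999 and 65828 at 10 mg/kg and 52775, 61225, 58553, 63976 and 51642 at 200 mg/kg. Every mouse given SP30 or any dose of SP70 lay above every control mouse, while both SP300 groups overlapped with control, which held 1 mouse at 56662.

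Hamp rose 2.02-fold after SP30 (1.02 ± 0.14, adjusted p = 1.5e-07) and 1.98-fold, 1.77-fold and 1.70-fold after SP70 at 10 (0.98 ± 0.14, adjusted p = 1.21e-06), 20 (0.82 ± 0.14, adjusted p = 9.42e-06) and 40 mg/kg (0.76 ± 0.14, adjusted p = 2.29e-05). It rose 1.46-fold after SP300 at 200 mg/kg (0.54 ± 0.14, adjusted p = 0.00255). After SP300 at 10 mg/kg the difference did not pass (0.38 ± 0.14, adjusted p = 0.185). Without replicate 2 of that group it was 0.56 (adjusted p = 0.0122), and without control replicate 1 it was 0.51 (adjusted p = 0.0445). The SD of the signals was 13448 in that group and 10802 in control mice, against 3232 to 7255 in the other groups. The SE is pooled over all 7 groups and may be too small for this comparison. All mice of these groups with a call, 4 of the 5 given SP300 at 10 mg/kg and 1 control mouse had signals above 48037.

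Across the doses of SP70, no pair of doses differed in Hamp past the test. The difference between 40 and 10 mg/kg was -0.22 ± 0.14 (adjusted p = 0.239, 95% confidence interval -0.50 to 0.059), although the slope that includes control as 0 mg/kg was 0.0135 per mg/kg (adjusted p = 0.000912). At 10 mg/kg, SP30 was 1.55-fold above SP300 (0.64 ± 0.14, adjusted p = 0.000199) and SP70 was 1.52-fold above SP300 (0.60 ± 0.14, adjusted p = 0.00145), while SP30 and SP70 differed by 0.034 ± 0.14 (adjusted p = 0.889). At the toxic doses SP30 was above SP300 (0.47 ± 0.14, adjusted p = 0.0088), which did not pass after quantile normalization (0.33, adjusted p = 0.0924), and SP30 and SP70 differed by 0.25 ± 0.14 (adjusted p = 0.321).

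A second probe set of Hamp gave changes of 1.07 after SP30, 0.98, 0.89 and 0.77 after the rising doses of SP70, and 0.36 and 0.61 after SP300 at 10 and 200 mg/kg, with the same calls. It too lay above 48037 in every mouse of the groups with a call. Differences among those groups may therefore be compressed on both probe sets, which was not tested. The brighter probe set of Hamp2 was not called in any comparison with control (changes between -0.27 and 0.58, SE 0.34). Its signals ran from 11738 to 78483 in control mice and so spanned those of the treated groups. A dimmer Hamp2 probe set had group means between 57.2 and 93.5, all below the filter level. Those of the brighter probe set lay between 25131 and 46418. Which of them reads Hamp2 was not tested. The genes are closely related, and how far each probe set reads the other gene was not tested. The genes most like Hamp over the 35 mice were Pfkp (Pearson r = 0.836), H2-D1 (0.832) and Ppp4r2 (0.823).

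Of 20 tested genes of the inflammatory input to hepcidin, 13 rose and 3 fell after SP30 (median 0.80). After SP70 at 10, 20 and 40 mg/kg 13, 14 and 14 rose and 1, 3 and 2 fell (medians 0.70, 0.91 and 0.82), and after SP300 at 200 mg/kg 11 rose and 2 fell (median 0.52). With SP300 at 10 mg/kg 2 rose, Il1r1 and Il6ra, with a median of 0.17. Over all genes tested, 49.3% were called after SP30 and 18.2%, 39.7% and 44.4% after the rising doses of SP70. For SP300 the share was 1.17% at 10 and 30.6% at 200 mg/kg. Stat3 rose by 1.38 ± 0.11 after SP30, by 1.07 ± 0.11, 1.43 ± 0.11 and 1.34 ± 0.11 after SP70 and by 0.99 ± 0.11 after SP300 at 200 mg/kg, and was at 0.31 ± 0.11 after SP300 at 10 mg/kg (adjusted p = 0.18). Socs3, an inhibitor that STAT3 induces, rose by 3.68 ± 0.31 after SP30, by 2.09 ± 0.31, 2.42 ± 0.31 and 3.83 ± 0.31 after SP70 and by 2.46 ± 0.31 after SP300 at 200 mg/kg. Il1b, an inflammatory cytokine, rose by 3.41 ± 0.18 after SP30 and Il1r1, its receptor, by 3.23 ± 0.24. Il1r1 was also higher after SP300 at 10 mg/kg (1.26 ± 0.24, adjusted p = 0.00411), as was Il6ra, the interleukin-6 receptor (0.75 ± 0.16, adjusted p = 0.00855), which is named after its value was seen. Neutrophil and monocyte markers rose in the groups other than SP300 at 10 mg/kg, as counted above, and their part in these changes was not tested.

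Slc40a1, the only known cellular iron exporter of mammals, fell in all treated groups but SP300 at 10 mg/kg. Its signals were 4250.2, 3969, 5875, 4115 and 7384 after SP30, against 22607, 18208, 14941, 20285 and 17570.2 in control mice. After SP70 they were 8301, 9633, 15696, 7259 and 7932 at 10 mg/kg, 6694, 5263, 8079.7, 7034 and 6729 at 20 mg/kg and 8352, 5541, 8452, 6086 and 4324 at 40 mg/kg. After SP300 they were 19237, 20619, 22095, 23073 and 22452 at 10 mg/kg and 8253, 7948, 8222, 6843 and 6888 at 200 mg/kg. Apart from 1 mouse at 10 mg/kg of SP70, every mouse of the groups with a call lay below every control mouse, and SP300 at 10 mg/kg overlapped with control.

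Slc40a1 fell 3.73-fold after SP30 (-1.90 ± 0.18, adjusted p = 6.21e-11), and 1.98-fold, 2.77-fold and 2.92-fold after SP70 at 10 (-0.98 ± 0.18, adjusted p = 7.51e-05), 20 (-1.47 ± 0.18, adjusted p = 3.15e-08) and 40 mg/kg (-1.54 ± 0.18, adjusted p = 8.01e-09). It fell 2.44-fold after SP300 at 200 mg/kg (-1.28 ± 0.18, adjusted p = 7e-07), and after SP300 at 10 mg/kg the difference was 0.21 ± 0.18 (adjusted p = 0.647, 95% confidence interval -0.15 to 0.57). At 10 mg/kg, SP30 was below SP70 (-0.92 ± 0.18, adjusted p = 0.000167) and both were below SP300 (-2.11 ± 0.18, adjusted p = 5.34e-12 for SP30 and -1.19 ± 0.18, adjusted p = 4.06e-06 for SP70). SP300 at 200 mg/kg was below SP300 at 10 mg/kg (-1.49 ± 0.18, adjusted p = 4.98e-08).

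Between 40 and 10 mg/kg of SP70 the difference was -0.56 ± 0.18 (adjusted p = 0.0147), but it was -0.38 without replicate 3 of the SP70 10 mg/kg mice (adjusted p = 0.0907) and -0.42 without replicate 5 of the SP70 40 mg/kg mice (adjusted p = 0.0748). It was -0.36 after quantile normalization (adjusted p = 0.142). At the toxic doses, SP30 was below SP300 on the brighter probe set (-0.61 ± 0.18, adjusted p = 0.00851), but the dimmer one gave -0.17 ± 0.21 (adjusted p = 0.595) and the mean of both gave -0.39 (adjusted p = 0.113). SP30 differed from SP70 by -0.35 ± 0.18 (adjusted p = 0.278, 95% confidence interval -0.71 to 0.0062). The dimmer probe set of Slc40a1 gave changes of -1.82 after SP30, -1.07, -1.50 and -1.53 after SP70 and -1.64 after SP300 at 200 mg/kg, and -0.28 ± 0.21, adjusted p = 0.611 after SP300 at 10 mg/kg. The genes most like Slc40a1 over the 35 mice were Fahd1 (Pearson r = 0.952), Gpd1l (0.947) and B830008H07Rik (0.936).

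Kupffer cells are macrophages that reside in the liver sinusoids. They express ferroportin strongly, and most of their markers fell in all treated groups but SP300 at 10 mg/kg. Among 15 markers, 12 were lower and 1 higher after SP30 (median -1.77), 11, 13 and 13 were lower and 1, 0 and 0 higher after SP70 at 10, 20 and 40 mg/kg (medians -1.28, -3.21 and -3.81), and 14 fell after SP300 at 200 mg/kg (median -4.30). No marker was called after SP300 at 10 mg/kg (median 0.21). Their summed signal ran from 10649 to 23112 after SP30, from 13943 to 23884, from 5678 to 8270.4 and from 3197 to 4938 after the rising doses of SP70, from 38247.5 to 53774 after SP300 at 10 mg/kg and from 3910.05 to 5162 after SP300 at 200 mg/kg, against 32677 to 48322 in control mice.

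After SP70 at 40 mg/kg and after SP300 at 200 mg/kg, the group means of 10 of the 15 markers lay below the filter level of 165, among them the defining markers Clec4f, Vsig4, Timd4 and Marco, against 1 marker (Marco) in control mice. After SP30 this held for 2 (Timd4 and Cd163). In those groups with the lowest Kupffer cell markers Slc40a1 had signals between 4324 and 8452 after SP70 at 40 mg/kg and between 6843 and 8253 after SP300 at 200 mg/kg. The group mean after SP30 was 5119 ± 1482 (SD, n = 5). As given above, SP30 did not differ past the test from SP70 at 40 mg/kg. It differed from SP300 at 200 mg/kg only on the brighter probe set. The part of the Kupffer cells in the change of Slc40a1 was not tested.

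**Figure D4:**
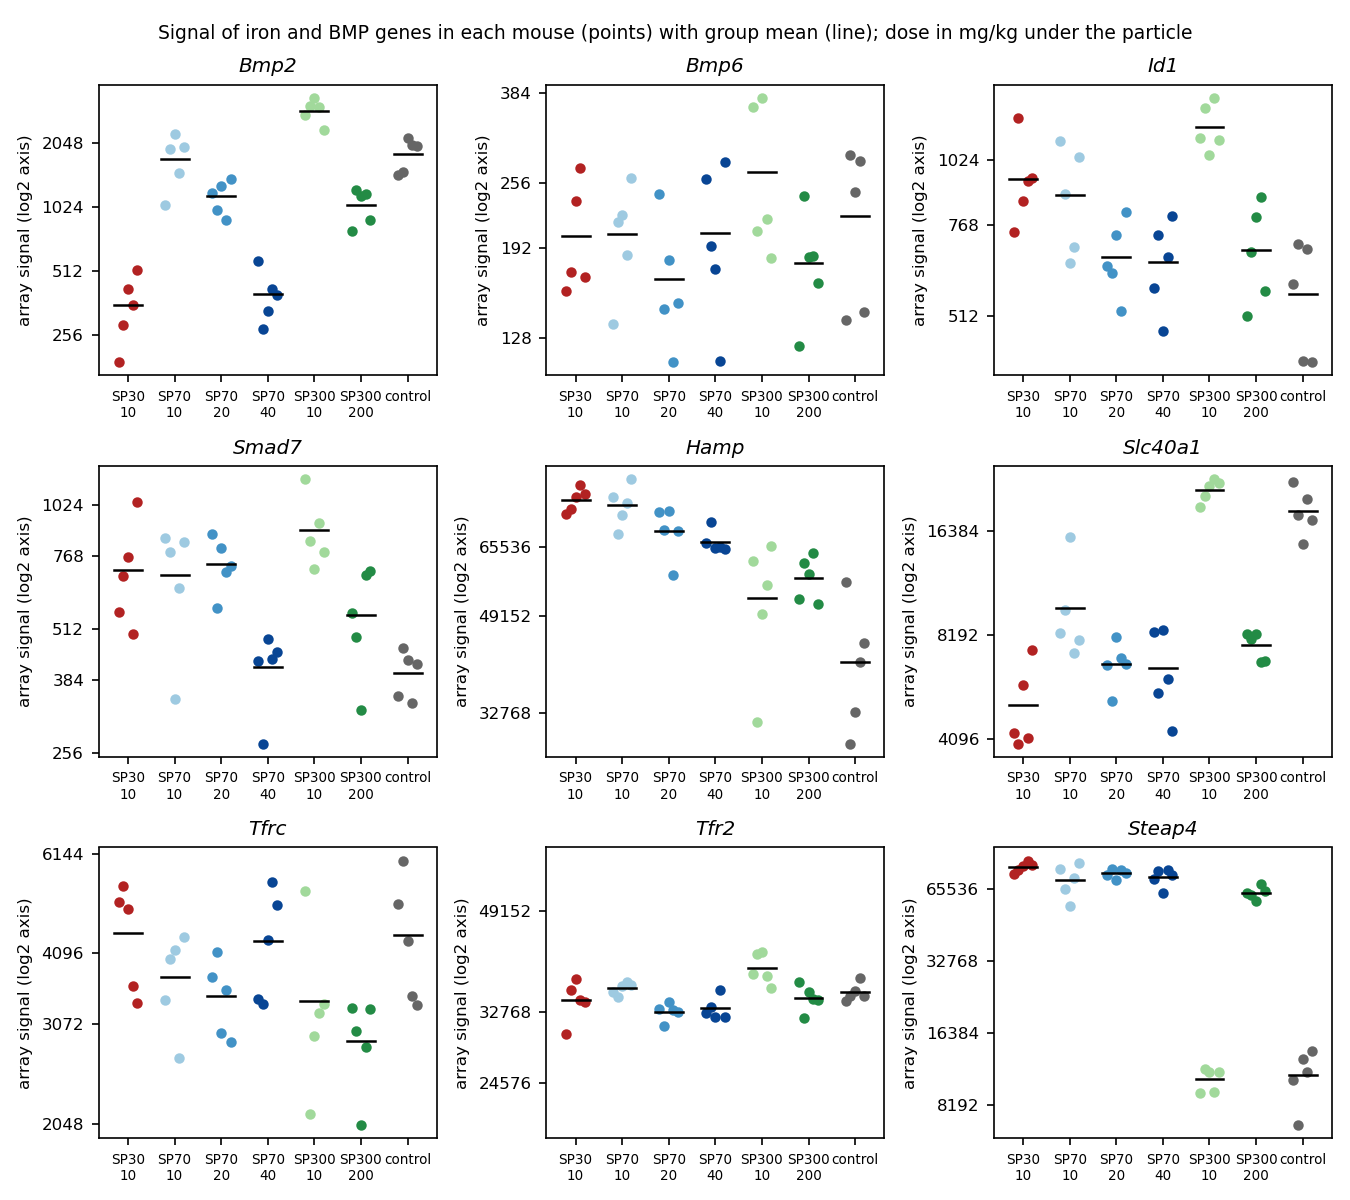
Array signal (vertical axis, log2 scale) of the 9 measured genes in each of the 35 mice (points) with the group mean (line), by particle and dose in mg/kg (horizontal axis). Bmp2 is lowest after SP30 and after SP70 at 40 mg/kg, and Hamp and Slc40a1 after SP300 at 10 mg/kg overlap with control.

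Tfrc, which takes up transferrin-bound iron, changed little on its brighter probe set. Its signals were 3282, 2987, 2037, 2795 and 3260.1 after SP300 at 200 mg/kg, against 5004, 5969.7, 4303, 3438 and 3326 in control mice. All 5 of those treated mice lay below every control mouse, a 1.52-fold fall (-0.60 ± 0.19, adjusted p = 0.0162). The call was lost without control replicate 2 (-0.48, adjusted p = 0.0667) and without replicate 3 of the SP300 200 mg/kg mice (-0.48, adjusted p = 0.0648), and with the mean of the probe sets of Tfrc (-0.39, adjusted p = 0.195). In the other groups the signals ran from 3352 to 5394 after SP30, from 2680.4 to 4382, from 2858 to 4121 and from 3327 to 5478 after SP70 and from 2129 to 5283 after SP300 at 10 mg/kg, all overlapping with control, with differences between -0.41 ± 0.19 and 0.026 ± 0.19. At the toxic doses SP30 (0.63 ± 0.19, adjusted p = 0.0136) and SP70 (0.57 ± 0.19, adjusted p = 0.0389) were above SP300. The first call was lost without replicate 3 of the SP300 200 mg/kg mice (0.51, adjusted p = 0.0548), and the second in 6 of 10 fits that each left out a mouse.

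Erythroid cells also express Tfrc. Of 10 erythroid markers 4 were tested, and after SP300 at 200 mg/kg 2 of them fell, with a list median of -0.39 beside -0.062 over all genes tested. These were Alas2, the erythroid enzyme that starts haem synthesis (-0.70 ± 0.21, adjusted p = 0.00917), and Slc4a1, the anion exchanger of red cells (-1.04 ± 0.35, adjusted p = 0.0208). Klf1, an erythroid transcription factor, fell after SP30 (-1.09 ± 0.31, adjusted p = 0.00341), and no other call was made among the 4 against control. Their summed signal ran from 4062 to 8590.2 after SP300 at 200 mg/kg, against 5487 to 10962 in control mice, and no marker was at 0 in any mouse. Their part in the change of Tfrc was not tested.

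A dimmer Tfrc probe set disagreed with the brighter one. It was higher after SP30 (1.08 ± 0.33, adjusted p = 0.00788), where the brighter one was at 0.026 ± 0.19, and was at -0.18 after SP300 at 200 mg/kg (adjusted p = 0.754). After SP30 its signals ran from 149.6 to 829.9 with a median of 716, against 128 to 264 in control mice. After SP70 at 40 mg/kg they ran from 224 to 639 with a median of 434, where the brighter one was at -0.028. A further probe set lay below the filter level in all 35 mice. The call for Tfrc after SP30 therefore depends on the probe set.

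Tfr2, the iron sensor of hepatocytes, varied little between groups. Its signals ran from 29938 to 37342 after SP30, from 34775 to 36923, from 30962 to 34060.1 and from 32041 to 35750.1 after SP70, and from 36101 to 41717 and from 31891 to 36922 after SP300 at 10 and 200 mg/kg, against 34200.00 to 37479.6 in control mice. Differences from control lay between -0.11 ± 0.054 (SP70 at 20 mg/kg, 95% confidence interval -0.22 to -0.0026) and 0.14 ± 0.054 (SP300 at 10 mg/kg, 95% confidence interval 0.029 to 0.25), and none passed, although all 5 mice at 20 mg/kg of SP70 lay below every control mouse. At that dose Tfr2 was called lower with arrays centred on their medians (-0.20, adjusted p = 0.0278) and with the mean of its probe sets (-0.14, adjusted p = 0.0329), as it was at 40 mg/kg with that mean (-0.14, adjusted p = 0.0372). Small differences between treated groups passed for SP30 against SP300 at 10 mg/kg (-0.19 ± 0.054, adjusted p = 0.00356) and for 200 against 10 mg/kg of SP300 (-0.17 ± 0.054, adjusted p = 0.0125), and neither passed when arrays were centred on their medians (-0.14, adjusted p = 0.115, and -0.092, adjusted p = 0.400). After quantile normalization the first was -0.060 (adjusted p = 0.279) and the second 0.0034 (adjusted p = 0.966). The dimmer probe set was called lower after SP70 at 20 and 40 mg/kg (-0.17 and -0.18) and after SP300 at 200 mg/kg (-0.24).

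Steap4, a reductase of iron and copper that inflammation induces, had the largest change of the 9 genes. Its signals were 75907, 79426, 82382, 86497 and 83390.3 after SP30, against 10378, 6741, 12703, 11285 and 13766 in control mice. After SP70 they were 79511, 65898, 56123, 73555 and 84404 at 10 mg/kg, 75068, 79894, 71968, 78704 and 76762 at 20 mg/kg and 72633, 78214, 63329.6, 79425 and 75346 at 40 mg/kg. After SP300 they were 9187, 11551, 11204, 9243 and 11233 at 10 mg/kg and 63339.9, 62253, 58503, 69008 and 64832 at 200 mg/kg. All mice of 5 treated groups lay several-fold above every control mouse, at signals above 48037, and all mice given SP300 at 10 mg/kg lay within the control range.

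Steap4 rose 7.63-fold after SP30 (2.93 ± 0.12, adjusted p = 2.1e-20), 6.67-fold, 7.16-fold and 6.89-fold after SP70 at 10 (2.74 ± 0.12, adjusted p = 2.76e-19), 20 (2.84 ± 0.12, adjusted p = 1.04e-19) and 40 mg/kg (2.78 ± 0.12, adjusted p = 2.49e-19), and 5.95-fold after SP300 at 200 mg/kg (2.57 ± 0.12, adjusted p = 1.71e-18). For SP300 at 10 mg/kg the difference was -0.032 ± 0.12 (adjusted p = 0.936, 95% confidence interval -0.27 to 0.21). SP30 and SP70 differed by 0.19 ± 0.12 at 10 mg/kg (adjusted p = 0.227) and by 0.15 ± 0.12 at the toxic doses (adjusted p = 0.542). SP30 was above SP300 at the toxic doses (0.36 ± 0.12, adjusted p = 0.02), which did not pass after quantile normalization (0.19, adjusted p = 0.200) or with centred arrays (0.33, adjusted p = 0.0588). All signals behind these differences between SP30, SP70 and the higher dose of SP300 lay above 48037, so their sizes on this probe set may be compressed.

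The dimmer Steap4 probe set, whose signals stayed below 48037, gave larger changes. They were 4.26 after SP30, 3.65, 4.01 and 3.91 after the rising doses of SP70, and 2.89 after SP300 at 200 mg/kg. After SP300 at 10 mg/kg it was at -0.52 ± 0.21, adjusted p = 0.272. Its group means were 25221 after SP30 and 10488 after SP300 at 200 mg/kg, against 1344 in control mice. On this probe set SP30 was above SP300 at the toxic doses by 1.37 ± 0.21 (adjusted p = 9.56e-06) and SP70 by 1.02 ± 0.21 (adjusted p = 0.00128), where the brighter one gave 0.36 and 0.21. SP30 was above SP70 at 10 mg/kg (0.61 ± 0.21, adjusted p = 0.0348) and differed from it by 0.35 ± 0.21 at the toxic doses (adjusted p = 0.438).

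Of 24 tested genes of iron transport, storage and sensing, 12 rose and 3 fell after SP30 (median 0.28). After SP70 at 10, 20 and 40 mg/kg 10, 9 and 8 rose and 0, 2 and 6 fell (medians 0.20, 0.16 and 0.048), and after SP300 at 200 mg/kg 6 rose and 3 fell (median 0.0083). Lcn2 and Scara5 were the 2 called after SP300 at 10 mg/kg, both higher. The shares over all genes were 49.3% after SP30, 18.2%, 39.7% and 44.4% after SP70, and 1.17% and 30.6% after SP300 at 10 and 200 mg/kg. Slc11a2, the iron importer DMT1, rose by 2.25 ± 0.14 after SP30, by 1.53 ± 0.14, 1.99 ± 0.14 and 1.98 ± 0.14 after SP70 and by 1.72 ± 0.14 after SP300 at 200 mg/kg. Slc39a14, the importer ZIP14 of iron that is not bound to transferrin, rose by 1.75 ± 0.12 after SP30, by 1.22 ± 0.12, 1.34 ± 0.12 and 1.66 ± 0.12 after SP70 and by 1.25 ± 0.12 after SP300 at 200 mg/kg. Lcn2, which binds bacterial siderophores and is made by hepatocytes and neutrophils, rose by 5.30 ± 0.22 after SP30 and by 1.46 ± 0.22 after SP300 at 10 mg/kg. Scara5, a ferritin receptor, rose by 3.01 ± 0.34 after SP30 and by 1.67 ± 0.34 after SP300 at 10 mg/kg.

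Of 24 tested genes of haem synthesis, transport and breakdown, 5 rose and 15 fell after SP30 (median -0.39), 3, 2 and 2 rose and 2, 12 and 16 fell after SP70 at 10, 20 and 40 mg/kg (medians -0.074, -0.28 and -0.41), and 2 rose and 11 fell after SP300 at 200 mg/kg (median -0.25). None was called after SP300 at 10 mg/kg. Among all genes, 31.3% were called lower after SP30, 5.69%, 20.9% and 28.8% after SP70 and 18% after SP300 at 200 mg/kg. The synthesis enzymes Alad and Cpox were lower after SP30 (-0.79 ± 0.10 and -0.88 ± 0.11) and after SP70 at 40 mg/kg (-0.53 ± 0.10 and -0.75 ± 0.11). Hmox1, which breaks haem down and releases its iron, rose by 3.74 ± 0.32 after SP30, by 2.37 ± 0.32, 1.21 ± 0.32 and 3.49 ± 0.32 after the rising doses of SP70 and by 0.85 ± 0.32 after SP300 at 200 mg/kg. Cd163, the haemoglobin receptor of macrophages and also a Kupffer cell marker, was lower after SP30 (-3.29 ± 0.40) and after SP70 at 40 mg/kg (-5.86 ± 0.40).

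Direct comparisons between treated groups called from 0 to 6 of the 9 genes. At 10 mg/kg, SP30 against SP70 called 2 (beside 29% of all genes tested), SP30 against SP300 called 5 (51.8%) and SP70 against SP300 called 4 (20.6%). At the toxic doses, SP30 against SP70 called 1, Smad7 (5.7%), SP30 against SP300 called 6 (29.2%) and SP70 against SP300 called 2 (15.5%). Along the doses of SP70, 20 against 10 mg/kg called 0 with limma (17%), where 4 had an unadjusted p under 0.05, 40 against 20 mg/kg called 2, Bmp2 and Smad7 (11.5%), 40 against 10 mg/kg called 3 (30.5%), and the slope called 4 (45.1%). For SP300, 200 against 10 mg/kg called 6 (31.7%).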

How the data were processed

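Liver RNA of 35 mice was amplified with a 3′ IVT Express kit and labelled with biotin, per the labels' protocols, and measured on 1 array per mouse. The deposited values are linear intensities of 45101 probe sets. MAS5 is named in the submitters' processing notes, without a version. How the arrays were scaled is not given. Trimmed means of the arrays lay between 887 and 1139, and the values were not rescaled. For arrays, their number limits the precision, which the SE gives.

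The platform annotation gives 34945 probe sets 1 gene and 932 several genes, and 64 are control probe sets, which were left out. RefSeq holds the gene identifiers of 34741 of the probe sets with 1 gene and changed 0 symbols. Before log2, 12.5 was added to every signal as a pseudocount, the 10th percentile of the whole table. Probe sets above 165 on at least 5 arrays were kept, and the one with the highest mean signal represented each of 12678 genes. Limma 3.58.1 in R 4.3.3 was fitted over all 7 groups with no other term and a variance trend, for 6 comparisons with control, 10 direct ones and the slope over SP70 dose, with two-sided p-values adjusted by Benjamini and Hochberg. Probe sets beside the representative one were fitted over the 22660 kept probe sets with 1 gene. The genes and lists were chosen with earlier results of these data known. Named besides the 10 genes are up to 4 genes per pathway list with the smallest adjusted p in any comparison with control, and the 3 genes most correlated with Hamp, Bmp2, Id1 and Slc40a1. Others are marked where named.

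The labels call the arrays biological replicates and the mice randomly assigned. Across genes, residuals of arrays with the same replicate number had a mean correlation of -0.000671 over 105 pairs (from -0.103 to 0.112), so the numbers were not used as a pairing. In simulated data with 200 of 12678 genes changed, 79% were recovered at a log2 change of 1 for SP30 against control and 77% for SP300 at 10 mg/kg. Recovery depends on the share of genes that change. In the real data SP30 against control called 49.3% of genes, so the simulated rate need not hold there. Alternatives were pseudocounts of 1 and 100, no filter, a filter on 18 arrays, quantile normalization, centring each array on its median, the mean of a gene's probe sets, a fit restricted to the compared groups, blocking on replicate number, and omitting each mouse once.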

Additional observations from a re-analysis of the deposited data

Results flagged for a closer look

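Of 63 sets of 5 mice (9 genes in 7 groups), 2 held a mouse that stood apart from the other 4; about 1 in 20 such sets is flagged by chance. Both are replicate 2 of the SP70 40 mg/kg mice. For Smad7 its signal was 270, with the other 4 mice between 429 and 485, and the gap was 0.787 of the range of the group. For Hamp its signal was 72642, with the other 4 between 64922 and 66688, and the gap was 0.761 of the range. Without that mouse the difference of Smad7 between 40 and 10 mg/kg of SP70 was -0.54 (adjusted p = 0.0649 in limma).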

How the results depend on the processing

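Of 153 recomputed counts of called genes under other settings, 143 stayed within 1.5 times the reported count. The exceptions were as follows. For SP70 at 20 against 10 mg/kg the count was 0, and it became 1 with a pseudocount of 100, 1 with centred arrays, 1 with the mean of a gene's probe sets and 2 with the replicate number as a block; the numbers were not taken as a pairing, and the block moved no other count by over 1.5 times. For SP30 against SP70 at the toxic doses the count was 1, and it became 2 with centred arrays and 0 with no filter. For SP70 against SP300 at the toxic doses the count was 2, and it became 1 with centred arrays and 1 with no filter. With the mean of a gene's probe sets, SP30 against SP70 at 10 mg/kg called 5 (reported 2), and SP70 at 40 against 10 mg/kg called 5 (reported 3). Leaving out each mouse gave 0 to 1, 0 to 2 and 1 to 2 called genes in the first 3 of these comparisons.

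The reported differences that changed sign lay between -0.17 and 0.21. With quantile normalization, Tfrc after SP70 at 40 mg/kg was 0.088, Tfr2 was -0.035 and 0.020 after SP70 at 10 and 40 mg/kg and 0.053 after SP300 at 200 mg/kg, and Tfr2 at 200 against 10 mg/kg of SP300, a reported call, was 0.0034. With centred arrays, Smad7 after SP70 at 40 mg/kg was -0.020, and Tfr2 was -0.014 after SP70 at 10 mg/kg and 0.021 after SP300 at 200 mg/kg. With the mean of probe sets, Tfrc after SP70 at 40 mg/kg was 0.36 (reported -0.028) and Slc40a1 after SP300 at 10 mg/kg was -0.035. Leaving out a mouse took Bmp2 after SP70 at 10 mg/kg from -0.21 to 0.066, Bmp6 after SP30 and after SP70 at 10 and 40 mg/kg from -0.23 to 0.024, -0.21 to 0.058 and -0.24 to 0.080, Smad7 after SP70 at 40 mg/kg from -0.038 to 0.17, Steap4 after SP300 at 10 mg/kg from -0.20 to 0.060, and Tfrc after SP30 and after SP70 at 40 mg/kg from -0.067 to 0.14 and -0.12 to 0.090. The cause was not tested.

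Over all genes, SP300 at 10 mg/kg called 148, but 87 with centred arrays and 45 in a fit of only the groups compared, and Id1 and Smad7 stayed called in both. SP70 at 40 against 20 mg/kg called 1455, but 851 with centred arrays, SP30 against SP70 at the toxic doses 723, but 419 in a fit of those groups, and SP70 against SP300 at the toxic doses 1959, but 3017 with centred arrays. Scaling moved the median of all genes by over 0.1 in 5 direct comparisons. Quantile normalization took it from -0.13 to 0.0031 for SP70 at 40 against 10 mg/kg, from -0.095 to 0.013 at 40 against 20 mg/kg, from -0.13 to -0.013 for SP30 against SP70 at 10 mg/kg and from -0.11 to -0.011 for SP300 at 200 against 10 mg/kg, and centring took it from -0.063 to -0.16 for SP70 against SP300 at the toxic doses. Dim signals limit Bmp6, and bright ones may limit the folds of Hamp and Steap4, which was not tested.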
